A study of Mus musculus with 12 samples.

Results

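Transcripts of 10 genes of interleukin-6 family signalling were followed in mouse hearts: the ligands Il6, Il11, Lif and Osm, the receptor chains Il6ra, Il6st, Osmr and Lifr, the transcription factor gene Stat3 and the feedback inhibitor gene Socs3. They were picked by symbol from the 55487 genes of the deposited table, and all 10 were found. RNA was sequenced from wild-type hearts of 4 groups with 3 libraries each. Mice had ischemia/reperfusion (I/R), in which the left anterior descending coronary artery was tied for 45 min and then reopened for 24 h, or a sham operation, in which the chest was opened and the artery was not tied. In each case the mice drank normal water (Sham and I/R) or water with vitamin B12 at 50 mg/L for 7 days beforehand (Sham+B12 and I/R+B12). The labels give no age, strain or sex, and do not say which region of the heart was taken or whether a library was 1 animal. The p-values below therefore measure the spread between these libraries, which may be technical in part.

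Cytokines of this family are secreted by leukocytes, endothelial cells, fibroblasts and injured muscle, and nearly all signal through gp130, the shared receptor chain encoded by Il6st, IL-31 being an exception. IL-6 and IL-11 first bind a chain of their own, the IL-6 receptor alpha (Il6ra) or the IL-11 receptor alpha. LIF joins gp130 to the LIF receptor (Lifr), and mouse oncostatin M joins it mainly to the oncostatin M receptor (Osmr). Kinases of the JAK family bound to these receptors phosphorylate STAT3, which enters the nucleus and switches on genes such as Socs3, whose product then blocks gp130. The family is known in the heart for its part in the acute response to infarction. RNA levels show neither cytokine protein nor STAT3 phosphorylation.

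Values are in FPKM, a count of fragments divided by transcript length and by the library's total, so that they can be set side by side between genes. Differences are log2 differences of FPKM + 1 from limma, fitted to all 12 libraries, and a gene was called at a Benjamini-Hochberg adjusted p under 0.05 over the 13001 genes that reached an FPKM of 1 in 3 or more libraries. On this scale the change of a gene with a low FPKM is understated. Depth was estimated from the spacing of the lowest values and was 24.75 to 29.0 M fragments per library, at which 1 fragment in a transcript of 1500 nt is worth 0.028 to 0.0328 FPKM. The cardiomyocyte marker sum (Myh6, Tnnt2 and 6 others) was 35500 to 57500 FPKM in every library, as the label heart requires. Some libraries were nearest to one from the other kind of surgery. The library labelled I/R 3 was nearest to Sham 2 over all tested genes (r = 0.982), and the library labelled Sham 3 was nearest to I/R+B12 1 (r = 0.969). Sham 2 was in turn nearest to I/R 3, and I/R+B12 3 was nearest to Sham 3 (r = 0.955). All were kept as labelled, and results that rest on I/R 3 or Sham 3 are also given without both. In whole tissue, fewer cells of a type and less RNA per cell cannot be told apart.

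Of the 10 genes, Il6ra, Il6st, Osmr, Lifr, Stat3 and Socs3 reached an FPKM of 1 in all 12 libraries. Il6 reached it in 6 libraries, Osm in 5 and Lif in 3, nearly all of them I/R or I/R+B12, so these 3 genes entered the test because of the groups in which they were high. Il11 reached it in 2 libraries and was not tested.

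**Figure D1:**
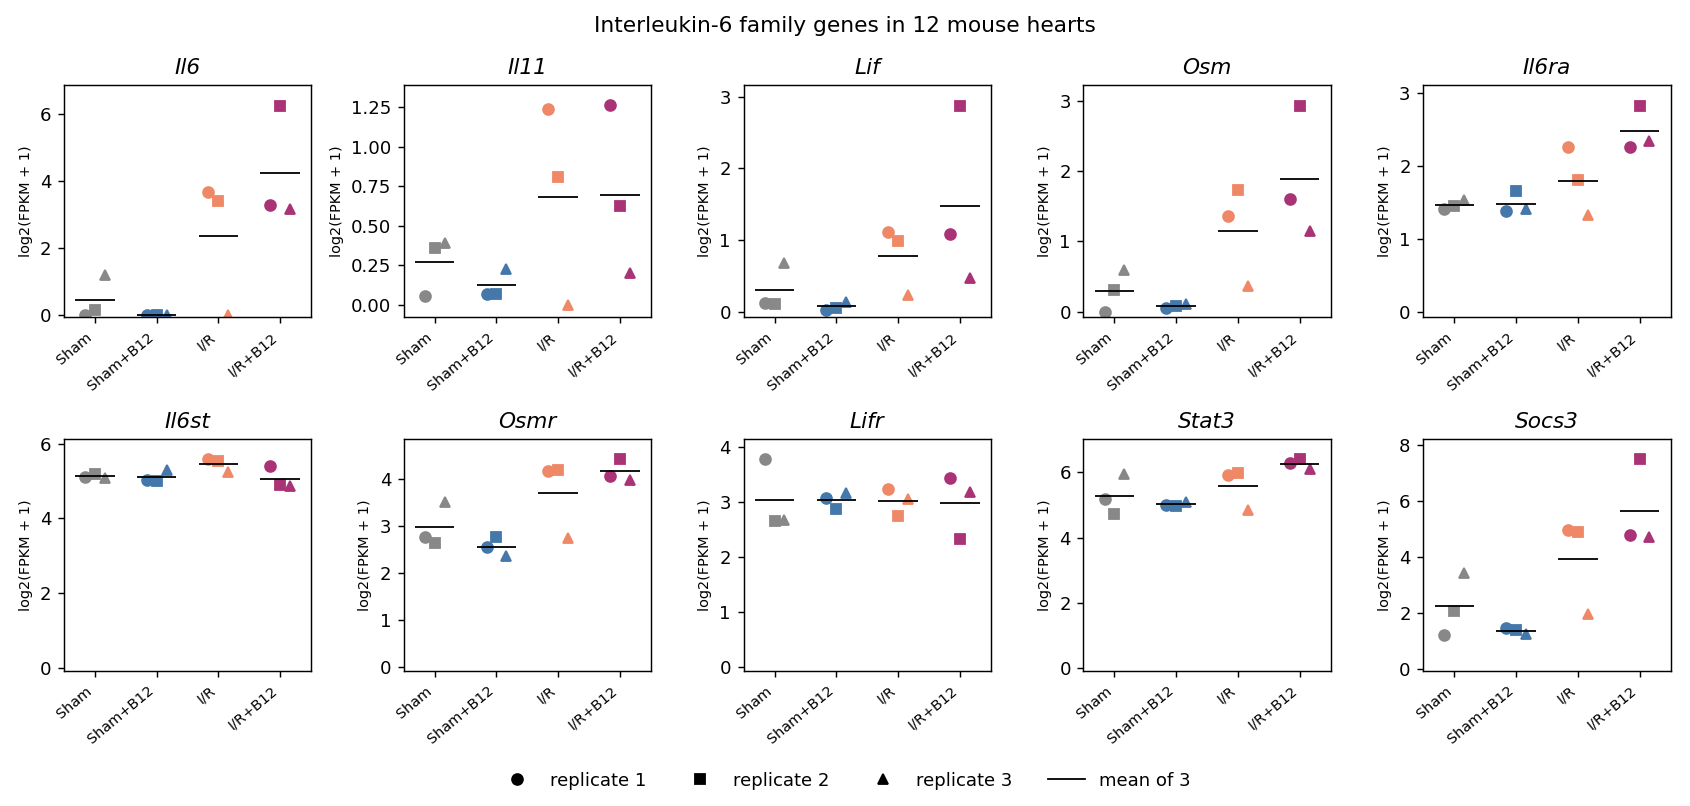
The level of each gene, as log2(FPKM + 1), in the 12 libraries by group; each symbol is 1 library, its shape is the replicate number and the bar is the mean of 3. Il6, Lif, Osm, Il6ra, Osmr, Stat3 and Socs3 have every I/R+B12 library above every Sham+B12 library, while I/R 3 (orange triangle) sits near the sham levels for Il6 and Socs3.

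Of the 4 ligands, Il6 and Osm rose after I/R with B12, and Il6 reached the highest level. Il6 (ENSMUSG00000025746, chromosome 5, 30013114 to 30019981, plus strand; GENCODE M21 on mm10) encodes interleukin-6, the founding member of the family and a driver of acute-phase responses. It was listed at 0 in Sham 1 and in all 3 Sham+B12 libraries, at 0.1 FPKM in Sham 2 and at 1.29 in Sham 3. After I/R on normal water it was 11.78, 9.6 and 0 FPKM, and after I/R with B12 it was 8.68, 74.74 and 7.84 FPKM. Every I/R+B12 library therefore lay above every Sham+B12 library, while I/R and Sham overlapped because of I/R 3, and I/R+B12 2 stood far above all others. Il6 rose in I/R+B12 against Sham+B12 by 4.22 on the log2 scale (SE 0.96; limma adjusted p = 0.0283). A fold of the FPKM itself is not given, because all 3 Sham+B12 libraries were listed at 0. The difference depends on the pseudocount, at 5.16 with 0.5 and 7.44 with 0.1 in place of 1.

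Osm (ENSMUSG00000058755, chromosome 11, 4236420 to 4241026, plus strand) encodes oncostatin M, a cytokine made chiefly by neutrophils and macrophages that also acts on cardiomyocytes. Its values were 0, 0.24 and 0.51 FPKM in Sham and 0.04, 0.06 and 0.08 in Sham+B12. They were 1.56, 2.31 and 0.29 FPKM in I/R and 2.04, 6.65 and 1.21 in I/R+B12. Groups were separate under B12 and overlapped on normal water, again through I/R 3. Osm rose in I/R+B12 against Sham+B12 by 1.81 (SE 0.43; limma adjusted p = 0.0320), and the ratio of mean FPKM was 55.0, or 27.1 without I/R+B12 2. The Sham+B12 values in it stand for a few fragments each.

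Lif lies next to Osm on chromosome 11 (ENSMUSG00000034394, 4257557 to 4272514, plus strand), 16530 bases away, and encodes leukemia inhibitory factor, a cytokine with growth and survival effects on cardiomyocytes. It was 0.09, 0.08 and 0.6 FPKM in Sham, 0.02, 0.04 and 0.1 in Sham+B12, 1.17, 0.98 and 0.18 in I/R, and 1.11, 6.34 and 0.38 in I/R+B12. The I/R+B12 libraries were all above the Sham+B12 libraries, but the difference of 1.40 (SE 0.49) did not pass (limma adjusted p = 0.0821). With a pseudocount of 0.1 it was 3.37 and passed (adjusted p = 0.0478). Il11 (ENSMUSG00000004371, chromosome 7, 4772373 to 4782859, minus strand), a cytokine linked to fibroblast activation, stayed low throughout. It was 0.04 to 0.31 FPKM in Sham, 0.05 to 0.17 in Sham+B12, 0 to 1.36 in I/R and 0.15 to 1.4 in I/R+B12. Its groups overlapped in both I/R comparisons. In a fit with no filter on low values its difference in I/R+B12 against Sham+B12 was 0.57 (limma adjusted p = 0.366).

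Among the family's 12 listed ligands, the one at the highest level changed with surgery. Ctf1, which encodes cardiotrophin-1, came first in all 6 sham libraries and in I/R 3, at 4.2 to 7.57 FPKM. In I/R 1, I/R 2 and all 3 I/R+B12 libraries Il6 came first, and it made up 65.6% to 84.7% of the summed FPKM of Il6, Il11, Lif and Osm. The same share was 47.6% in Sham 3 and 14.3% in Sham 2, on sums of 2.71 and 0.7 FPKM.

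The receptor chains did not move together. Il6ra and Osmr were higher after I/R with B12, while Il6st and Lifr showed no such difference. Il6st (ENSMUSG00000021756, chromosome 13, 112464070 to 112510086, plus strand), the gp130 gene, had the highest level of the 4 chains in every library. It was 33.73, 35.39 and 32.8 FPKM in Sham, 31.46, 31.23 and 38.16 in Sham+B12, 46.75, 45.7 and 37.08 in I/R, and 41.48, 28.89 and 28.07 in I/R+B12. All 3 I/R libraries exceeded all 3 Sham libraries, I/R 3 included. The difference of 0.33 (SE 0.16) did not pass in I/R against Sham (limma adjusted p = 0.443), and it was -0.05 in I/R+B12 against Sham+B12 (adjusted p = 0.856).

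Osmr (ENSMUSG00000022146, chromosome 15, 6813577 to 6874969, minus strand) encodes the chain through which mouse oncostatin M signals. Its level was 5.86, 5.27 and 10.42 FPKM in Sham, 4.89, 5.87 and 4.14 in Sham+B12, 17, 17.44 and 5.72 in I/R, and 15.94, 20.54 and 14.97 in I/R+B12. The 3 I/R+B12 libraries were close to I/R 1 and I/R 2, and I/R 3 was among the sham values. Osmr rose in I/R+B12 against Sham+B12 by 1.60 (SE 0.36; limma adjusted p = 0.0277), from 4.97 ± 0.868 to 17.1 ± 2.98 FPKM (SD, n = 3 each), a ratio of 3.45. In order of mean level the groups ran I/R+B12 (17.1), I/R (13.4 ± 6.64), Sham (7.18 ± 2.82) and Sham+B12 (4.97), and no neighbours in that order differed by limma.

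Il6ra (ENSMUSG00000027947, chromosome 3, 89864059 to 89913196, minus strand) encodes the chain that binds IL-6. It was 1.65, 1.73 and 1.87 FPKM in Sham, 1.6, 2.15 and 1.64 in Sham+B12, 3.77, 2.48 and 1.5 in I/R, and 3.77, 6.07 and 4.04 in I/R+B12. It rose in I/R+B12 against Sham+B12 by 0.99 (SE 0.23; limma adjusted p = 0.0298), a ratio of mean FPKM of 2.58. A predicted gene that overlaps it, Gm42809, was at 0.34 FPKM or less in every library. Lifr (ENSMUSG00000054263, chromosome 15, 7090614 to 7197489, plus strand), the LIF chain, was 12.77, 5.31 and 5.36 FPKM in Sham, 7.4, 6.3 and 8.04 in Sham+B12, 8.45, 5.72 and 7.32 in I/R, and 9.81, 4 and 8.08 in I/R+B12. Its groups overlapped in every comparison, with a difference of -0.06 in I/R+B12 against Sham+B12 (limma adjusted p = 0.921).

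The balance between the chains differed between libraries accordingly. The ratio of Osmr to Lifr was 0.515 to 0.932 in Sham+B12 and 1.62 to 5.13 in I/R+B12. It was 2.01 and 3.05 in I/R 1 and I/R 2 but 0.781 in I/R 3, and 0.459 and 0.992 in Sham 1 and Sham 2 but 1.94 in Sham 3. Osmr exceeded Lifr in 6 of the 12 libraries, namely these 5 I/R and I/R+B12 libraries and Sham 3. Il6ra amounted to 4.3% to 6.88% of Il6st in Sham+B12 and to 9.09% to 21% in I/R+B12.

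Downstream of the receptors, Stat3 and Socs3 were both higher after I/R with B12, Socs3 by far more. Stat3 (ENSMUSG00000004040, chromosome 11, 100885098 to 100939540, minus strand) encodes the factor that carries the gp130 signal to the nucleus, and its promoter is itself a known target of STAT3. It was 35.37, 25.6 and 60.48 FPKM in Sham, 31.29, 30.62 and 33.42 in Sham+B12, 59.51, 62.4 and 27.73 in I/R, and 77.77, 83.14 and 68.1 in I/R+B12. All 3 I/R+B12 libraries were above all 9 others. It rose in I/R+B12 against Sham+B12 by 1.23 (SE 0.32; limma adjusted p = 0.0394), from 31.8 ± 1.46 to 76.3 ± 7.62 FPKM (SD, n = 3 each), a ratio of 2.40. The end of Stat3 overlaps that of Stat5a, and whether reads were counted by strand is not given in the sources used here.

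Socs3 (ENSMUSG00000053113, chromosome 11, 117966079 to 117970047, minus strand) encodes the inhibitor that binds gp130 and its kinases. It was 1.3, 3.23 and 9.67 FPKM in Sham, 1.73, 1.64 and 1.35 in Sham+B12, 30.32, 28.76 and 2.86 in I/R, and 26.54, 178.95 and 25.01 in I/R+B12. Apart from I/R+B12 2, the I/R+B12 libraries were level with I/R 1 and I/R 2, and I/R 3 fell within the Sham range. Socs3 rose in I/R+B12 against Sham+B12 by 4.30 (SE 0.90; limma adjusted p = 0.0253), with a ratio of mean FPKM of 48.8, or 16.4 without I/R+B12 2. The ratio of Socs3 to Stat3 was 0.0368, 0.126 and 0.16 in Sham, 0.0404 to 0.0553 in Sham+B12, 0.509, 0.461 and 0.103 in I/R, and 0.341, 2.15 and 0.367 in I/R+B12. The I/R 3 value was thus below those of Sham 2 and Sham 3.

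**Figure D2:**
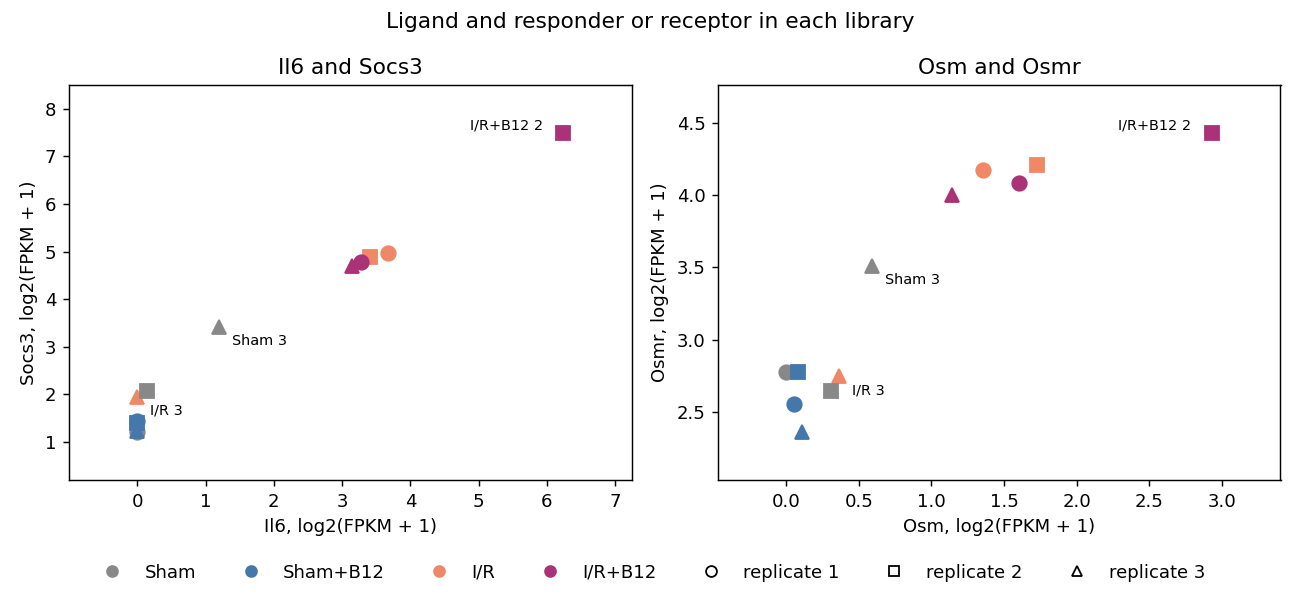
Il6 against Socs3 (left) and Osm against Osmr (right) in each of the 12 libraries, both axes as log2(FPKM + 1), with colour for the group and shape for the replicate number. In both panels I/R 3 lies with the sham libraries, Sham 3 lies between them and the other I/R libraries, and I/R+B12 2 is at the top right (74.74 FPKM of Il6 and 178.95 of Socs3).

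The promoters of Il6 and Socs3 are shown because these genes had the largest differences. Both are the 250 bases before the gene's start in RefSeq (GRCm38.p6), 5′ to 3′ on the gene's strand, with motif matches in capitals. In Il6 (chr5:30012864-30013113, plus strand) the capitals are an AP-1 motif, TGANTCA, 249 bases before the start and an NF-kB motif, matched as GGGATTTTCC with any base allowed at the fifth place, 44 bases before it. In Socs3 (chr11:117969367-117969616, minus strand) they are the STAT motif TTCNNNGAA, 154 bases before the start. This Socs3 window lies within the annotated gene and overlaps an exon of a noncoding Socs3 transcript in GENCODE M21.
Il6: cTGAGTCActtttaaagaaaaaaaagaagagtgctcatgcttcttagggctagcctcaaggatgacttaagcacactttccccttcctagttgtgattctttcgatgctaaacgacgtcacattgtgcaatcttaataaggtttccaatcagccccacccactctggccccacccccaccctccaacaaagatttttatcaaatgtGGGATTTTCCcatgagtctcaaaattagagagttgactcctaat
Socs3: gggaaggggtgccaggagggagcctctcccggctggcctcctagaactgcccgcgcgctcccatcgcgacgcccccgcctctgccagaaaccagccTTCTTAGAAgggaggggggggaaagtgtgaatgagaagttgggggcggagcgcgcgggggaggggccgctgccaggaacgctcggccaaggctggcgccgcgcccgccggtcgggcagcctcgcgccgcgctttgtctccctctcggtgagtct

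Both strands were searched for the 3 motifs in the windows of all 32851 RefSeq starts of the table. The STAT motif was in 7.02% of windows, the AP-1 motif in 6.75% and the NF-kB motif in 0.356%. Of the 10 genes 9 had a promoter entry, with 11 windows. Lif had an AP-1 match 228 bases before its start and Il11 had one 98 bases before 1 of its starts. The windows of Il6ra, Il6st, Osmr, Lifr and Stat3 held none of the 3 motifs spelled this way. A match is a description of the letters and not evidence of binding.

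Counted together, 6 of the 9 tested genes were called in I/R+B12 against Sham+B12, all higher, where 6.78% of all tested genes were called higher and 10.4% in either direction. Among the 6 genes that were at an FPKM of 1 or more in every library, 4 were called (Il6ra, Osmr, Stat3 and Socs3). Of all 10, untested Il11 included, 7 had every I/R+B12 library above every Sham+B12 library, against 19.1% of tested genes. They were the same 4 genes and Il6, Lif and Osm. These last entered the test because of the groups in which they were high, so their separation follows in part from the filter. None of the 6 called genes stayed called without Sham+B12 1, Sham+B12 2, Sham+B12 3 or I/R+B12 2, left out one at a time. Nor did any in the fit with no filter on low values. Without I/R+B12 2 the number of called genes over the whole table was 49.

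In I/R against Sham, which asks the same question on normal water, 0 of 9 were called by limma, and 0% of all tested genes were. None of the 9 reached an unadjusted p under 0.05, against 1516 of all tested genes. The differences were 1.92 for Il6 (adjusted p = 0.448), 1.71 for Socs3 (0.459), 0.85 for Osm (0.449), 0.73 for Osmr (0.444) and 0.30 for Stat3 (0.716). Il6st alone had all I/R libraries above all Sham libraries, where 18.8% of tested genes did. With Sham 3 and I/R 3 left out, Osmr was called, at 1.47 (adjusted p = 0.0344), in a fit where 0.431% of all tested genes were called. In that fit Il6 was at 3.47 (0.105), Socs3 at 3.29 (0.103) and Stat3 at 0.99 (0.0517), which did not pass.

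**Figure D3:**
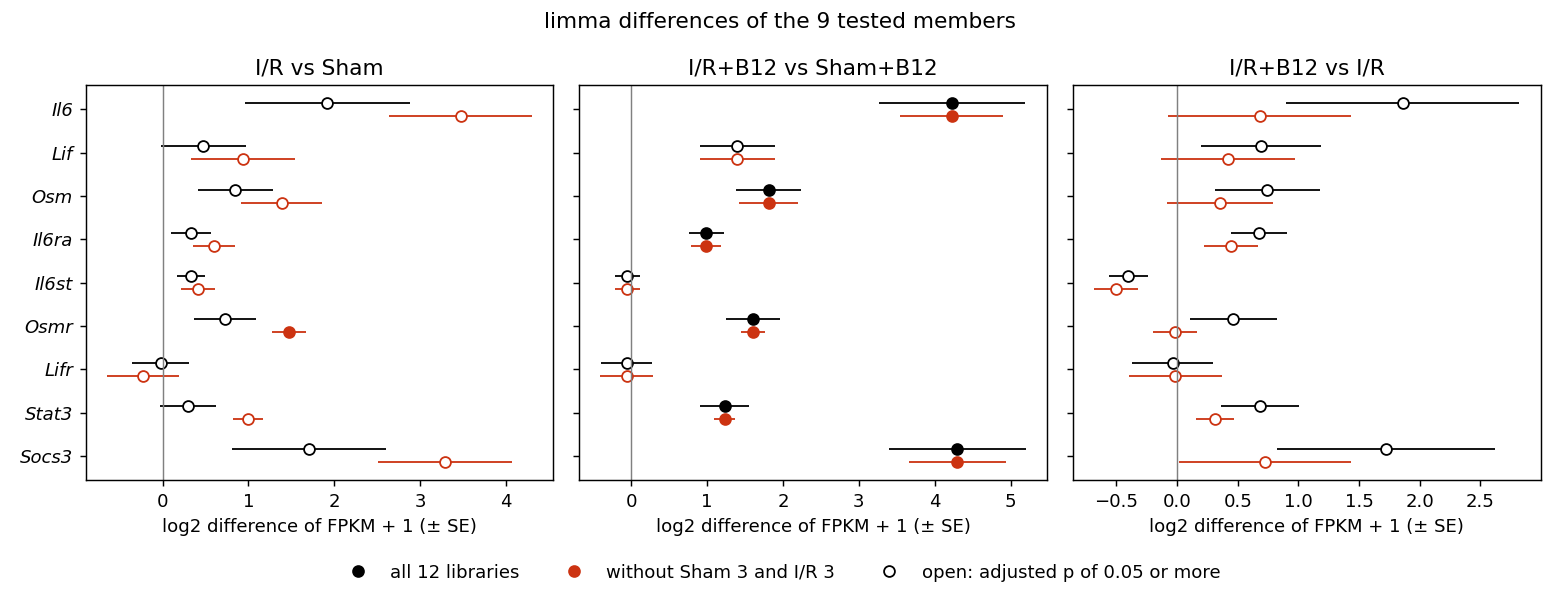
The log2 difference (± SE) of the 9 tested genes in 3 comparisons, from limma with all 12 libraries (black) and without Sham 3 and I/R 3 (red); filled points have an adjusted p under 0.05. In I/R against Sham the points of all but Lifr move right without those libraries (Osmr from 0.73 to 1.47). Neither library is in I/R+B12 against Sham+B12, so there only the SE can change.

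When the I/R difference was averaged over both kinds of water (6 libraries against 6), 5 of 9 were called, all higher, where 8.36% of tested genes were called higher and 10.1% in either direction. In all, 0 of the 10 genes had all 6 I/R and I/R+B12 libraries above all 6 others, against 3.62% of tested genes. The 5 called genes were Il6 (3.07, limma adjusted p = 0.0283), Socs3 (3.0, 0.0262), Osm (1.33, 0.0298), Osmr (1.17, 0.0272) and Il6ra (0.66, 0.0345). Stat3 at 0.77 did not pass (0.0541). Among the 6 genes that reached an FPKM of 1 in every library, 3 were called. This average uses the same libraries as the 2 comparisons it is made from. It called 0 of the 9 without any one of Sham 1, Sham 2, I/R 1, I/R 2, Sham+B12 1 or Sham+B12 3, and 2 without Sham+B12 2 and 3 without I/R+B12 2. Without both Sham 3 and I/R 3, a fit chosen after seeing the data, it called 6 of the 9, all higher. In that fit 17.7% of all tested genes were called in either direction, and Stat3 passed at 1.11 (limma adjusted p = 0.00173).

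Vitamin B12 made no difference that passed the test. In I/R+B12 against I/R, 0 of 9 were called and 0% of all tested genes, with 2 of the 9 (Il6ra and Il6st) and 3711 of all genes at an unadjusted p under 0.05. The differences were 1.86 for Il6 (limma adjusted p = 0.222), 1.72 for Socs3 (0.226), 0.68 for Il6ra (0.104), 0.68 for Stat3 (0.185), 0.46 for Osmr (0.409) and -0.40 for Il6st (0.140). The median over all tested genes was -0.21 in this comparison. Stat3 had all I/R+B12 libraries above all I/R libraries, as did 4.41% of tested genes. Without Sham 3 and I/R 3 the differences were smaller, at 0.68 for Il6, 0.73 for Socs3, 0.32 for Stat3 and -0.02 for Osmr, none of them called, while Il6st went to -0.50 (adjusted p = 0.173). Without I/R+B12 1, Il6ra and Il6st were called.

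In Sham+B12 against Sham, 0 of 9 and 0% of all tested genes were called by limma, with 0 of the 9 and 220 of all genes at an unadjusted p under 0.05. Socs3 differed by -0.87, Il6 by -0.44 and Osmr by -0.41, each with an adjusted p of 0.999 or above, and Sham 3 was the highest Sham library for all 3. Without Sham 3 and I/R 3 these differences were -0.28, -0.07 and -0.15, and 0 of 9 and 0% of all tested genes were called. In 0 of the 10 were all Sham+B12 libraries above all Sham libraries, against 1.54% of tested genes. The interaction, that is, the effect of I/R with B12 minus its effect on normal water, also called 0 of 9 and 0% of all tested genes, with 0 of the 9 and 1595 of all genes at an unadjusted p under 0.05. Its values were 2.59 for Socs3 (limma adjusted p = 0.413), 2.30 for Il6 (0.459) and 0.94 for Stat3 (0.412). Without Sham 3 and I/R 3 they were smaller, at 1.01 for Socs3 (limma adjusted p = 0.747), 0.75 for Il6 (0.814) and 0.24 for Stat3 (0.730). That fit called 0 of 9, and 0.0154% of all tested genes. That 6 genes were called with B12 and 0 on normal water is thus not shown to be a difference between them.

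Other genes of the pathway were read in I/R+B12 against Sham+B12, where the median over all tested genes was -0.02. Of all tested genes, 6.78% were called higher there and 10.4% in either direction. Of 8 other ligands 4 were tested and 0 were called by limma. Clcf1 at 0.88 (adjusted p = 0.0725), Ctf1 at -0.50 (0.199) and Ebi3 at 0.08 were among them. Clcf1 encodes cardiotrophin-like cytokine factor 1, and Ebi3 encodes a partner in composite cytokines. Of 6 other receptors and shedding enzymes 0 were called, among them Il11ra1, the IL-11 chain (-0.39, 0.0800), Il27ra (-0.47), Cntfr (-0.15), Il31ra (1.07, 0.104) and Adam10 (0.15). Of the kinases, Jak2, which binds gp130, rose by 0.78 (0.0425). Ctf1 overlaps Ctf2, and Il11ra1 overlaps several genes, so reads of these genes may have been shared.

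Among 10 tested feedback regulators 3 rose, against 6.78% of all tested genes, with a list median of 0.29. They were Socs2 (0.88, limma adjusted p = 0.0197) and Socs6 (0.73, 0.0250), relatives of Socs3, and Ptpn2 (1.00, 0.0294), a phosphatase that acts on JAKs and STATs. Ptpn1, a related phosphatase, differed by 1.14 and did not pass (0.119). Against the same 6.78%, 9 of 24 tested genes listed as inducible by STAT3 rose and 0 fell, with a median of 2.30. Among them were Bcl3 (2.15, 0.0265), an NF-kB cofactor, Fosl2 (1.86, 0.0277) and Junb (2.86, 0.0306), both AP-1 subunits, and Il4ra (2.46, 0.0337), the IL-4 receptor chain. Fga, Fgb, Fgg and Reg3b, also listed, were too low to be tested and overlapped between I/R+B12 and Sham+B12. Many genes of this list also answer to other factors. In I/R against Sham 0 of the genes of these lists were called by limma, and 0% of all tested genes were. Without Sham 3 and I/R 3, 6 of the 24 were called higher in I/R against Sham, where 0.431% of all tested genes were called. The same fit called 18 of the 24 in I/R+B12 against Sham+B12, where 12.8% of all tested genes were called; neither library is in that comparison, so only the estimate of the spread differed.

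Markers of other cells were read beside these results. Of 9 tested neutrophil markers 3 rose in I/R+B12 against Sham+B12 (Retnlg, S100a9 and Trem1), with a median of 2.81. In that comparison 6.78% of all tested genes were called higher. Trem1, Cxcr2, Mmp8 and Ngp reached an FPKM of 1 only in I/R or I/R+B12 libraries, so they entered the test because of those groups. Ly6g and Camp were not tested, and both overlapped between I/R+B12 and Sham+B12. The sum of all 11 neutrophil markers was 1.14 to 36.7 FPKM in Sham+B12 and 102 to 2080 in I/R+B12. It was 1260 and 1210 FPKM in I/R 1 and I/R 2, 16.5 in I/R 3, and 7.13 to 66.2 in Sham, with Sham 3 at the top. Libraries high in Il6, Osm and Socs3 were high in neutrophil markers, though I/R+B12 3, at 102 FPKM, had 25.01 FPKM of Socs3. Ly6g was listed at 0 in 5 libraries, I/R 3 among them. It was 0.18, 0.58 and 0.11 FPKM in I/R+B12, below Sham 3 (0.91), and 3.9 and 2.17 in I/R 1 and I/R 2. Of 11 monocyte and macrophage markers 1 rose (Cd14), and their sum was 332 to 610 FPKM in Sham+B12, 207 to 631 in I/R+B12 and 601 to 1060 in I/R. Of 7 endothelial markers Pecam1 (0.63) and Esam (0.62) rose, but the list median was only 0.08. Of the 7, 4 differences were positive and 3 negative (Tek -0.48, Kdr -0.30 and Tie1 -0.18, not called). The endothelial sum was 444 to 505 FPKM in Sham+B12 and 539 to 597 in I/R+B12. Among fibroblast and cardiomyocyte markers 0 of 8 each were called, and of 7 smooth muscle markers Myh11 fell. Hepatocyte markers summed to 34.2 FPKM in I/R 3 and 19.4 in Sham+B12 1, against 6.01 or less in the other libraries. The part of these cells in the results was not tested.

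**Figure D4:**
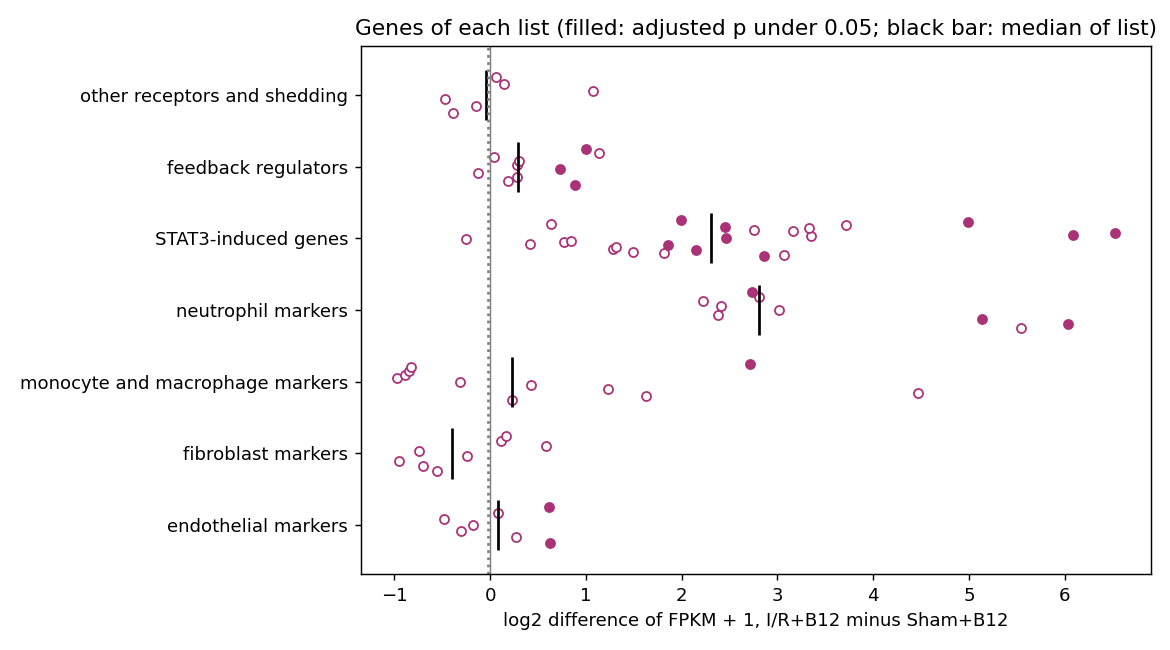
The log2 difference in I/R+B12 against Sham+B12 for each tested gene of 7 lists; filled points have a limma adjusted p under 0.05, the black bar is the list's median and the dotted line the median of all tested genes (-0.02). Genes inducible by STAT3 and neutrophil markers have medians of 2.30 and 2.81, and that of other receptors and shedding enzymes lies near 0 (-0.04).

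For each tested gene, the 3 tested genes with the most similar FPKM over the 12 libraries were found by Spearman's rho, as a description. The 12 libraries differ in injury state, and genes that change with it rank the libraries alike, so high values are common. Il6 was most like Csf3 (0.971), a neutrophil growth factor, Sele (0.966), an endothelial adhesion molecule, and Arg2 (0.966). Osmr was most like the neutrophil markers S100a8 (0.972) and S100a9 (0.965) and like Zyx (0.972), and Socs3 most like Junb (0.986), Il18rap (0.982) and AA467197 (0.979). Stat3 was most like Mt1 (0.965), a metallothionein, Map2k3 (0.944) and Zmiz1 (0.944). Osm was most like Zfx (0.986), Pi15 (0.986) and Fgl2 (0.979), Lif like Eif6 (0.993), Gsr (0.991) and Nolc1 (0.986), and Il6ra like Rplp0 (0.974), Fth1 (0.956) and Cdc42ep4 (0.956). Lifr had the weakest matches, Taf4 (0.916), Bap1 (0.916) and Polr2c (0.865), and Il6st was most like Fam120a (0.979), Erlin2 (0.972) and Irak4 (0.965).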

How the data were processed

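The authors deposited 1 table of FPKM values for 55487 genes in 12 libraries. HISAT2, StringTie and the build mm10 are named in the submitters' processing notes, with no versions, and the libraries were poly(A)-selected, per the labels' protocols. The table's group means were not used. Where a symbol repeated, the row with the highest mean was taken. The members and gene lists were chosen with earlier results of these data known.

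Values were analysed as log2(FPKM + 1) in limma 3.58.1 (R 4.3.3) with a variance trend, keeping genes that reached FPKM 1 in 3 or more libraries. The fit held 4 groups and no covariates, tests were two-sided, and Benjamini-Hochberg adjustment was done separately for 6 contrasts. The fit was tested on simulated data with independent normal noise and no outlying libraries. That test cannot show how the fit behaves with libraries such as I/R 3 and Sham 3. Named genes were the 10 members, the tested family ligands and receptors, and of each other list the 4 tested genes with the smallest p in I/R+B12 against Sham+B12. Adam17, a tested shedding enzyme, is only counted, and some genes the rule names are not reported here.

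Depth was estimated from the steps of low FPKM values, after subtracting 270 nt from the annotated length. Between 81.5% and 88.3% of low values then fell within 0.15 of a whole number of fragments. This covers counting error only. Coordinates are from GENCODE M21 (55141 of the IDs were found), and promoter sequences from RefSeq. Alternatives were pseudocounts of 0.1 and 0.5, no filter, a filter at FPKM 5, median-ratio scaling, quantile normalization, library weights, a replicate block, the compared groups alone, and leaving out each library in turn. A fit without Sham 3 and I/R 3 was chosen after seeing the data, as were ratios of means without I/R+B12 2. Plots were made in matplotlib 3.10.9.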

Additional observations from a re-analysis of the deposited data

How the results depend on the processing

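No difference reversed its direction past the threshold. The number of the 9 tested genes called in I/R+B12 against Sham+B12, 6 in the report, was 0 with no filter, where 26986 genes shared the adjustment, and 0 to 7 when 1 library was left out. It was 4 with the compared groups alone, 4 with a filter at FPKM 5 (which leaves Il6ra, Lif and Osm untested), and 7 with a pseudocount of 0.1. The averaged I/R difference, with 5 calls, gave 0 with no filter and 0 to 6 with 1 library left out. I/R+B12 against I/R, with 0 calls, gave 0 to 2 with 1 library left out, and I/R against Sham 0 in each case. Library weights gave 7 calls for I/R against Sham, 1 for the interaction and 2 for I/R+B12 against I/R. Their estimation did not reach its tolerance, so these counts are uncertain. Without Sham 3 and I/R 3, I/R against Sham gave 1 call and the averaged I/R difference gave 6.

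The replicate numbers did not pair the libraries: deviations from the group means correlated at a mean r of 0.0144 over 18 same-number pairs (-0.412 to 0.391). With the replicate block, 5 genes were called in I/R+B12 against Sham+B12, Stat3 being lost (adjusted p = 0.0573), and 5 in the averaged I/R difference. With 3 libraries a group, and FPKM of Il11, Lif and Osm near that of a few fragments in many sham libraries, small differences in these ligands were not detectable.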

Other observations

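Il31ra, which encodes the chain that joins the oncostatin M receptor to bind IL-31, lies 9811 bases from Il6st on chromosome 13 (112519898 to 112594360, minus strand). It had the highest FPKM of the 8 family receptor genes in all 12 libraries, from 75.72 FPKM in Sham+B12 1 to 469.17 in I/R+B12 3. Its ligand gene Il31 was listed at 0 in all 12. The other I/R+B12 libraries had 229.2 and 118.25 FPKM, and Sham had 203.65, 130.79 and 127.18, so the groups overlapped. A predicted gene inside its span, Gm3226, was at 0.25 FPKM or less.

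The library I/R+B12 2 had the highest FPKM of all 12 for Il6 (74.74), Lif (6.34), Osm (6.65), Il6ra (6.07), Osmr (20.54), Stat3 (83.14) and Socs3 (178.95). It also had the lowest Lifr (4) and Ctf1 (2.08), and its neutrophil marker sum of 2080 FPKM was the highest.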
